A study of Sus scrofa with 32 samples.

Results

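The blood vessels (BV) of the endometrium were compared with its stroma (S) in cyclic gilts on Day 14. The comparison used 8 of the 32 samples of the series, namely a BV and an S library from each of gilts C128, C40, C42 and C78, paired by the animal number that the labels carry. A cyclic gilt is written here as C and its number, so that gilt C128 gave the libraries labelled CB128 (BV) and CS128 (S), and a pregnant gilt as P and its number. All gilts of the series were prepuberal animals synchronized with eCG and then hCG, and those called cyclic, labelled as nonpregnant controls, were inseminated with semen supernatant instead of semen. Frozen endometrium without its muscle layer was sectioned and stained with cresyl violet, and BV, S, luminal epithelium (LE) and glandular epithelium (GE) were cut out by laser capture microdissection. The captured vessels were the larger ones and the captured stroma was chosen to hold no other visible structure. Each library was made from a picogram amount of RNA of 1 gilt and 1 compartment, and the pregnant gilts served here only to set the same difference beside that of the cyclic gilts.

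The wall of a larger vessel is an endothelial tube wrapped by pericytes or smooth muscle and held by an elastic and collagenous matrix. Smooth muscle contracts through actin and myosin when calcium rises, and nitric oxide, cyclic nucleotides and potassium channels relax it. Endometrial stroma is a meshwork of fibroblasts that carries progesterone receptor, secretes growth factors acting on the epithelium above it, and contains capillaries, lymphatics and immune cells.

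A total of 12186 genes that the study's filter kept in at least one of the 2 compartments was tested with edgeR's quasi-likelihood test, with the gilt as a block. A gene is called when its Benjamini-Hochberg adjusted p is at most 0.05. Levels are CPM, the usual scale of counts relative to the library total, after TMM normalization and are not corrected for gene length, so they are set against each other between samples and not between genes. The 4 values of a compartment always follow the order of gilts C128, C40, C42 and C78, and a change is the log2 fold change of BV over S ± its standard error, positive when BV was higher.

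Library totals lay between 2543270 and 3826691 counts in BV and between 3095926 and 5388161 counts in S, and the first axis of a multidimensional scaling of the 8 libraries held all BV libraries on one side and all S libraries on the other. The 7 smooth muscle markers were all higher in every BV library than in every S library, and 4 of the 8 endothelial markers were called higher in BV, so both defining cell types of the label were present. Of the 6 fibroblast markers, COL1A1, COL3A1, DCN and LUM were not called and PDGFRA and DPT were called higher in S. The 7 epithelial markers summed to 164, 13.0, 10.4 and 159 CPM in S and 25.8, 46.4, 2.48 and 29.1 CPM in BV, so that S of gilts C128 and C78 held more epithelial RNA than the other 6 libraries. The leukocyte markers summed to between 127.9 and 224 CPM in BV and between 167 and 251 CPM in S. In such bulk captures, fewer cells of a type and less RNA per cell cannot be told apart.

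**Figure D1:**
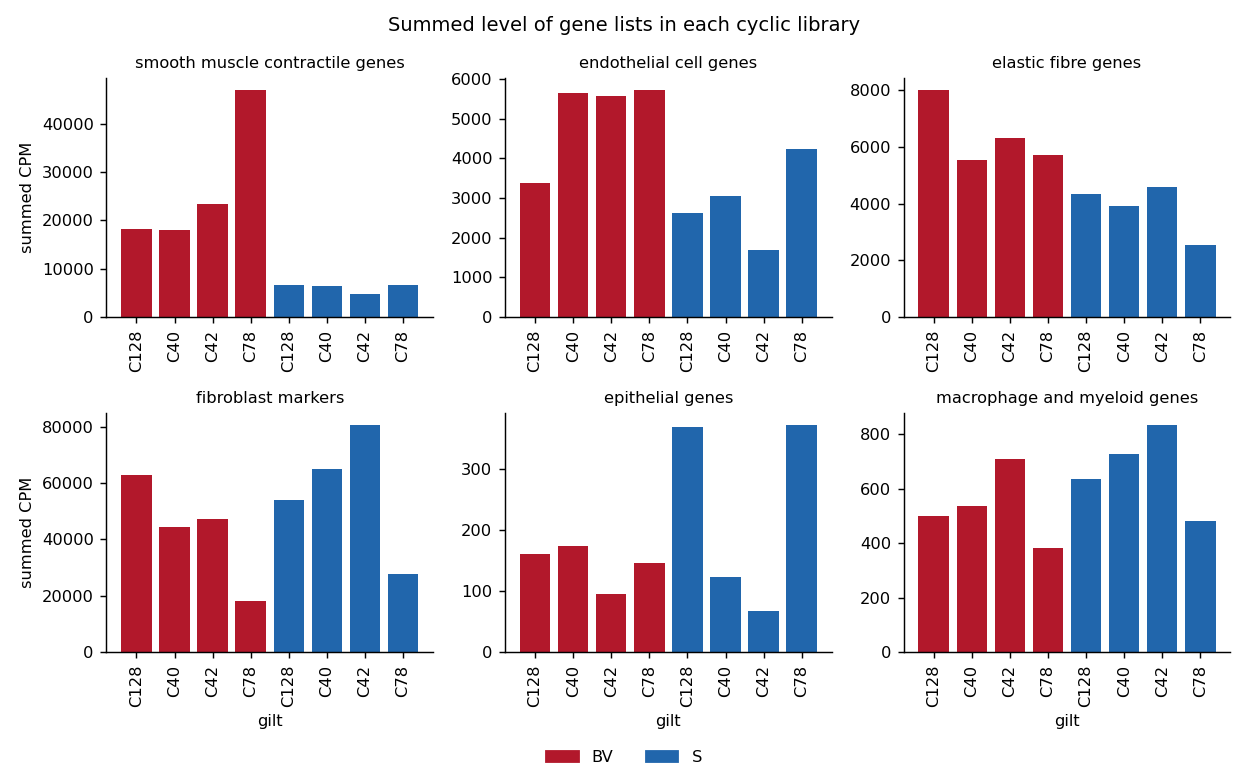
Summed level of 6 gene lists in the 4 BV libraries (red) and the 4 S libraries (blue) of the cyclic gilts, in CPM from 0, with the gilt number under each bar. The muscle list was highest in BV of gilt C78 at 47034 CPM, and the epithelial list was high in S of gilts C128 and C78 at 369 and 373 CPM.

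Of the genes tested, 1190 (9.77%) differed between the compartments, 734 (6.02%) being higher in BV and 456 (3.74%) higher in S, with 3173 genes at an unadjusted p under 0.05. The median log2 fold change of all genes tested was 0.0034. TMM normalization brings this median near 0, so the value is no test of the scale. A test with the gilt as a block favours genes with the same direction in every gilt, so agreement among gilts is no separate support for the calls. All 734 genes were higher in BV in 4 of 4 gilts and 453 of the 456 genes were higher in S in 4 of 4 gilts. At least 2-fold differences were found for 520 of the former and 299 of the latter. All 4 BV libraries lay above all 4 S libraries for 602 of the genes called higher in BV, against 1107 genes (9.08%) among all tested, and the reverse held for 311 of those called higher in S, against 762 genes (6.25%). Leaving out gilt C40 reduced the calls to 163 and 50, and leaving out gilt C42 to 290 and 129. Without gilts C128 and C78, an alternative chosen after the data had been seen because of the epithelial RNA in their S libraries, 1408 and 915 genes were called over the other 2 gilts. Passing the filter in a single compartment favours a difference but does not force it. Of the 251 genes that passed it in BV only, 84 were called higher in BV. Of the 1090 genes that passed it in S only, 77 were called higher in S. Among genes that passed it in both compartments, 587 and 432 were called. Of the 119 called members of the lists described here that were higher in BV, 14 passed the filter in BV only. They were ACTG2, BMX, CASQ2, COL8A1, HTR2B, ID4, JPH2, KCNMB1, LDB3, MYOCD, PDLIM3, RAMP1, RYR3 and TNC. Of the 24 higher in S, UNC5B passed it in S only.

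**Figure D2:**
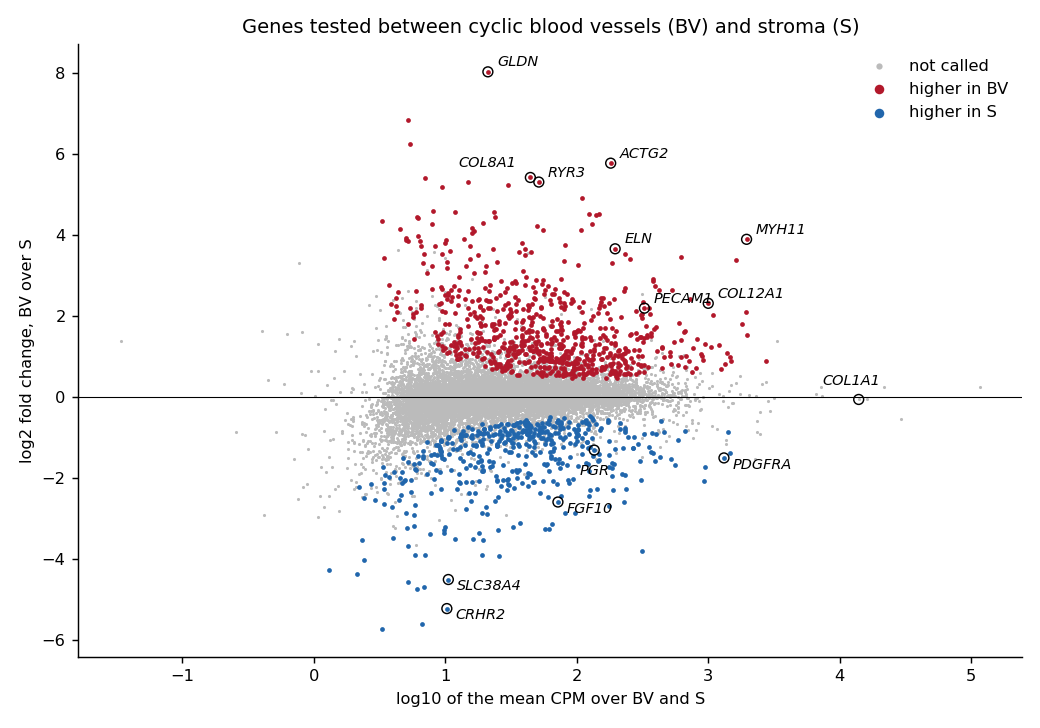
Log2 fold change of BV over S (y axis) against the log10 of the mean CPM over both compartments (x axis) for the 12186 genes tested, each point being a gene. Genes called higher in BV (red, 734) and in S (blue, 456) are coloured, some of the genes named in the text are circled, and COL1A1 lies near 0 while MYH11 is at 3.89.

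The 10 genes with the largest increase in BV held contractile, matrix and receptor genes among others. All 10 passed the study's filter in BV and not in S, so that their levels in S were low by the choice of genes. GLDN, an olfactomedin-domain protein known from nodes of Ranvier, had 29.99, 16.7, 87.6 and 34.5 CPM in BV and 0, 0.27, 0 and 0.166 CPM in S, a fitted change of 8.02 ± 0.48 (adjusted p = 0.00159, edgeR's quasi-likelihood test). Its S libraries held 2 counts in all, and the ratio of the pooled CPM was 360.1 (99.2 to 2981). HTR2B, a Gq-coupled serotonin receptor, had 10.1, 4.32, 15.98 and 10.8 CPM in BV and 1 count in all S libraries, a ratio of 169.9 (29.97 to 6763). ADAMTS8, a secreted metalloprotease, had 4.24, 3.75, 13.8 and 21.2 CPM in BV and 2 counts in S, a ratio of 83.0 (22.5 to 693). These intervals are exact binomial ones at 95% and cover counting error only. The groups did not overlap for any of the 10 genes of this rank, which also held ACTG2, COL8A1, RYR3, KCNMB1, PTCHD1 (5.39), ZFPM2 (5.31), a cofactor of GATA factors, and ART4 (5.23), an ADP-ribosyltransferase that carries the Dombrock blood group. Among other genes, chosen after their values were seen because their p was the smallest, stood DMD, the dystrophin that anchors the actin skeleton to the membrane, with 302, 259, 347 and 806 CPM in BV and 31.4, 17.8, 31.2 and 68.7 CPM in S. The groups were far apart, and its change was 3.53 ± 0.15 (adjusted p = 0.00105), and SYNM (3.31), an intermediate filament protein that binds desmin, TTLL7 (4.21) and the potassium channel beta subunit KCNAB1 (4.12) followed it. When gilt C40 was left out, the calls of ACTG2, RYR3 and ART4 were lost, with an adjusted p between 0.0503 and 0.073, and without gilt C42 that of RYR3, at 0.0502.

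Counts of called members in a list stand beside 6.02% of all genes called higher in BV and 3.74% higher in S. In a list, 1 or 2 members called higher in S therefore say little. Of the 19 gene lists examined, that of smooth muscle contractile genes had the largest share of members called. Of the 30 tested, 26 were called higher in BV and none in S, their median change was 2.34, and all 30 had a positive change. MYH11, the myosin heavy chain of smooth muscle, had 2414, 1631, 2372 and 8406 CPM in BV and 268, 157, 117 and 333 CPM in S, a change of 3.89 ± 0.31 (adjusted p = 0.00408). BV of gilt C78 was far above the other BV libraries, yet the lowest BV library was still above the highest S library. ACTA2, smooth muscle alpha actin, had 1953, 2236, 3287 and 4494 CPM in BV and 395, 357, 125 and 295 CPM in S (3.39 ± 0.44, adjusted p = 0.00925). The enteric actin ACTG2 had 99.1, 97.7, 271 and 965 CPM in BV and 10.3, 1.35, 1.74 and 6.66 CPM in S (5.77 ± 0.73, adjusted p = 0.00906). The 2 actins are near-identical in sequence, and how their shared reads were split in the counting is uncertain. TAGLN, which binds actin filaments, had 739.6, 795, 1079 and 1981 CPM in BV and 134, 98.5, 50.3 and 127.6 CPM in S (3.46 ± 0.35), and CNN1, calponin, 121, 103, 240.0 and 614 CPM and 14.9, 9.72, 3.47 and 10.3 CPM (4.49 ± 0.59). Of the Z-disc proteins, LDB3 was higher by 4.08 ± 0.27 and PDLIM3 by 4.45 ± 0.51, and of the other markers DES changed by 2.79 ± 0.53 and LMOD1 by 2.73 ± 0.26. In each of these genes the groups did not overlap. The 4 members that were not called were SYNPO2 (0.48 ± 0.29), SMTN (0.68 ± 0.17, adjusted p = 0.0546), HSPB6 (0.46 ± 0.16) and PPP1R14A (1.11), and the groups of SMTN did not overlap either. In the absence of gilt C40 the calls of ACTG2, DES and VCL were lost and without gilt C42 those of DES and VCL, with an adjusted p of at most 0.0943. Without gilt C78, MYH11 still had a change of 3.61 and ACTA2 of 3.17.

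**Figure D3:**
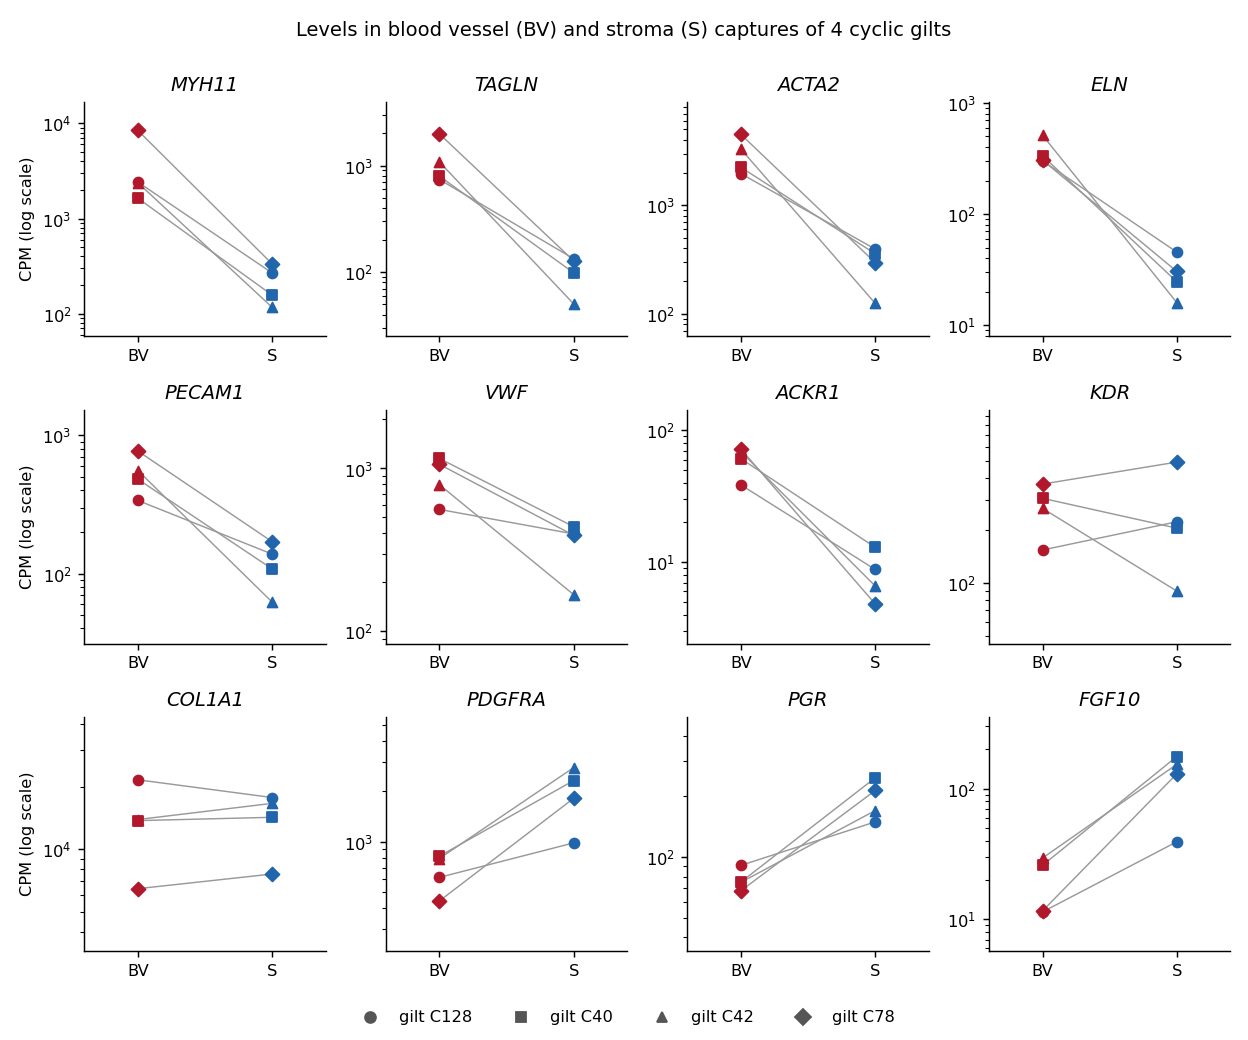
CPM on a log scale in BV (red) and S (blue) of the 4 cyclic gilts for 12 genes, a marker shape and a grey line standing for each gilt. The muscle genes MYH11, TAGLN and ACTA2, ELN, PECAM1, VWF and ACKR1 lay higher in every BV library, KDR and COL1A1 overlapped, and PDGFRA, PGR and FGF10 lay higher in every S library.

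Serum response factor (SRF) binds the CArG box, CC followed by 6 bases of A or T and then GG, in the promoters of many contractile genes. The box was searched in the 250 bases before the annotated start of each gene of Sscrofa11.1 in the RefSeq annotation, and it reads the same class of letters on both strands. It was found for 263 of 20643 protein-coding genes (1.27%), for 143 of the 11609 tested genes with a window (1.23%), for 16 of 714 genes higher in BV (2.24%), for 2 of 414 genes higher in S (0.483%) and for 4 of the 30 smooth muscle genes (13.3%). The contractile list was written from genes known in muscle, and these shares are a description. The 4 genes were TAGLN, MYL9, the regulatory myosin light chain, LDB3 and VCL, the adhesion protein vinculin, of which MYL9 and VCL are named here because of their box. The boxes are shown in capitals with up to 30 bases on either side, all on the plus strand, to let 4 sites, 1 for each gene, be compared.
TAGLN, chr9:44561535-44561604: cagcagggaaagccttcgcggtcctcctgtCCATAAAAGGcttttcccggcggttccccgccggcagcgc
MYL9, chr17:39788065-39788134: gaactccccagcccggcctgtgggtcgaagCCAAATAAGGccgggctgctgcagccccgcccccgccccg
LDB3, chr14:87660910-87660960: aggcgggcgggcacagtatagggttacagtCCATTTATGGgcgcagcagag
VCL, chr14:76699907-76699976: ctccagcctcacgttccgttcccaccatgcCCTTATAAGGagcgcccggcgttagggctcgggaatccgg
The box shown for TAGLN began 191 bases before the start of its gene, and those of MYL9, LDB3 and VCL began 70, 21 and 206 bases before theirs. MYL9 had 291, 282, 375 and 938 CPM in BV and 51.0, 40.8, 20.5 and 53.2 CPM in S, a change of 3.39 ± 0.34 (adjusted p = 0.00605), and VCL changed by 1.63 ± 0.26 (adjusted p = 0.0147, lost without gilt C40 or C42). SRF itself had 24.4, 37.8, 42.4 and 46.5 CPM in BV and 18.7, 19.4, 22.2 and 23.5 CPM in S, and was higher in BV by 0.82 ± 0.16 (adjusted p = 0.0256), with every BV library above every S library.

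Receptors and enzymes that set vascular tone were mostly higher in BV where they differed, 11 of the 27 tested being called higher in BV and 1 in S, with a median change of 0.96. The arm that relaxes muscle through cyclic GMP was among them. GUCY1A3, the alpha subunit of the nitric oxide receptor, had 175, 161, 108 and 241 CPM in BV and 55.2, 28.1, 18.4 and 50.7 CPM in S (2.23 ± 0.18, adjusted p = 0.00408). PRKG1, the kinase that cyclic GMP activates, had 131, 87.0, 125 and 208 CPM and 32.8, 18.9, 11.11 and 28.9 CPM (2.60 ± 0.25, adjusted p = 0.00574), and PDE3A, a cyclic nucleotide phosphodiesterase inhibited by cyclic GMP, 98.1, 121, 104 and 202 CPM and 32.5, 20.8, 20.5 and 44.1 CPM (2.16 ± 0.18, adjusted p = 0.00408). In all 3 genes the lowest BV library was above the highest S library. RAMP1, which makes the receptor for calcitonin gene-related peptide, was higher in BV by 3.29 ± 0.77 (adjusted p = 0.0429) at low levels of 6.52, 11.8, 15.98 and 14.9 CPM against 3.30, 0.54, 0 and 0.998 CPM. The prostaglandin E2 receptor PTGER4 was higher in BV by 1.58 ± 0.29 (adjusted p = 0.0204). RGS2, which shortens signals of Gq-coupled receptors, ran the other way, with 395, 263, 315 and 131 CPM in BV and 530.0, 931, 871 and 719 CPM in S (-1.54 ± 0.32, adjusted p = 0.0289) and no overlap. The endothelin receptor EDNRB (0.02 ± 0.20), the endothelin-converting enzyme ECE1 (-0.06 ± 0.18) and PDE1A (0.58 ± 0.15) were not called. The calls of RAMP1, PTGER4 and RGS2 were not kept with each gilt left out. That of RAMP1 was lost without gilt C40, C42 or C78, and that of RGS2 without gilt C40 or C42. That of PTGER4 was lost without gilt C128 or C42, with an adjusted p between 0.0535 and 0.155 for these losses. Their changes kept their direction, at 2.81 to 4.56 for RAMP1, 1.34 to 1.88 for PTGER4 and -1.91 to -1.26 for RGS2.

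Of 26 genes for calcium and potassium handling in muscle, 13 were called higher in BV and 2 higher in S, with a median change of 1.07. Proteins of the calcium store and its junctions were among those that rose. RYR3, a ryanodine receptor that releases stored calcium, had 46.6, 64.0, 54.3 and 239 CPM in BV and 5.13, 0, 3.47 and 0.499 CPM in S (5.30 ± 0.90, adjusted p = 0.017). PLN, the phospholamban that restrains the calcium pump, had 90.6, 37.5, 40.8 and 164 CPM and 6.23, 5.13, 1.04 and 17.0 CPM (3.58 ± 0.30, adjusted p = 0.00418). CASQ2, which buffers calcium in the store, had 18.9, 19.6, 26.2 and 56.1 CPM and 0.55, 2.43, 0.694 and 3.83 CPM (4.04 ± 0.36, adjusted p = 0.00474), and JPH2, which ties the store to the cell membrane, changed by 3.50 ± 0.50. The parts of the large-conductance potassium channel moved in opposite directions. Its beta subunit KCNMB1 had 11.7, 10.95, 18.5 and 32.8 CPM in BV and 0, 0, 0 and 2.16 CPM in S, the latter resting on gilt C78 alone (5.17 ± 0.67, adjusted p = 0.00925), whereas the pore KCNMA1 had 159, 166, 157 and 133 CPM in BV and 215, 545, 398 and 390.5 CPM in S (-1.27 ± 0.23, adjusted p = 0.0194). Neither gene's groups overlapped. KCNQ5, another potassium channel, was also higher in S (-1.81 ± 0.31, adjusted p = 0.017), and the potassium channel subunit KCNE4 was higher in BV by 2.22 ± 0.48 (adjusted p = 0.033), with overlap in both. The store receptors ITPR1 (0.53 ± 0.26) and RYR2 (0.32 ± 0.32) and the pump ATP2A2 (0.46 ± 0.15) were not called. Without gilt C40 or without gilt C42 the calls of RYR3, KCNE4, KCNMA1 and KCNQ5 were lost, that of JPH2 was lost without gilt C40, and that of KCNE4 also without gilt C128 or C78 and without the block, with an adjusted p between 0.0502 and 0.171.

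Endothelial genes showed a smaller and less uniform difference. Of 31 tested, 7 were called higher in BV and none in S, although 28 had a positive change and the median was 0.70. PECAM1, a junctional adhesion molecule of endothelium, had 338, 482, 557 and 770.2 CPM in BV and 138, 108, 62.1 and 170.0 CPM in S (2.19 ± 0.29, adjusted p = 0.0097). SELP, the P-selectin that venules show to leukocytes, had 51.2, 145, 129 and 105 CPM and 24.2, 28.3, 15.6 and 15.97 CPM (2.29 ± 0.32, adjusted p = 0.0106). VWF, von Willebrand factor, had 560.0, 1151, 794 and 1059.6 CPM and 396, 439, 168 and 388 CPM (1.39 ± 0.27, adjusted p = 0.0249). These 3 genes were higher in every BV library than in every S library. The tight junction protein CLDN5 (2.36 ± 0.57, adjusted p = 0.0472), the surface protein ECSCR (1.35 ± 0.28, adjusted p = 0.0306) and the angiopoietin receptor TEK (0.81 ± 0.16, adjusted p = 0.0264) were also called. KDR, the main VEGF receptor, had 155, 305, 267 and 368 CPM in BV and 224, 206, 89.9 and 492 CPM in S (0.28 ± 0.35, adjusted p = 0.674), higher in BV in 2 of 4 gilts, and its highest library was S of gilt C78. The junctional cadherin CDH5 (0.78 ± 0.37), the receptor TIE1 (0.53 ± 0.30), the transcription factor ERG (0.93 ± 0.28), the adrenomedullin receptor CALCRL (0.41 ± 0.20) and the matrix protein MMRN2 (0.70 ± 0.28) were not called. The endothelial list summed to 3374, 5649, 5564 and 5732 CPM in BV and 2614, 3039, 1676 and 4228 CPM in S, so S of gilt C78 exceeded BV of gilt C128. Without gilt C40 the calls of CLDN5, SELP, PECAM1, VWF, ECSCR and TEK were lost, with an adjusted p between 0.0554 and 0.162. Those of CLDN5, VWF, ECSCR and TEK were lost without gilt C42, those of CLDN5 and ECSCR without gilt C128, that of TEK without gilt C78, and those of CLDN5 and TEK without the block, with an adjusted p between 0.052 and 0.148. Calls were also gained. Without gilts C128 and C78, over the other 2 gilts, CDH5 had a change of 1.57, TIE1 of 1.26, ERG of 1.41, MMRN2 of 1.21 and KDR of 1.05, with an adjusted p between 0.00103 and 0.00692. That fit was chosen after the data had been seen, and KDR was lower in BV in both gilts left out. These adjusted p values therefore do not count as support for a difference. ERG was called by DESeq2 and the robust GLM as well, at 0.0415 and 0.00829.

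Genes that mark kinds of vessels gave larger changes for single members, 5 of the 21 tested being called higher in BV and 1 in S, with a median of 0.12. Some arterial and venous genes were among them, while other arterial genes, named after their values were seen, were not, namely GJA4 (-1.13 ± 0.96), SOX17 (-0.60 ± 0.43), DLL4 (-0.25 ± 0.59), HEY1 (-0.02 ± 0.87) and NOTCH4 (-0.00 ± 0.42). GJA5, the gap junction protein of arterial endothelium, had 163, 135, 194 and 93.4 CPM in BV and 3.85, 11.3, 2.78 and 47.8 CPM in S (3.74 ± 0.82, adjusted p = 0.0352). BMX, a tyrosine kinase of arterial endothelium, had 23.5, 10.95, 12.7 and 13.7 CPM and 0.734, 0, 0 and 2.33 CPM (4.27 ± 0.69, adjusted p = 0.0146). ACKR1, the atypical chemokine receptor of venules, had 38.5, 60.8, 68.6 and 71.8 CPM and 8.80, 13.0, 6.596 and 4.83 CPM (2.86 ± 0.33, adjusted p = 0.00731), and JAG1, a Notch ligand, 494, 394, 521 and 563 CPM and 118, 119, 80.9 and 229 CPM (1.94 ± 0.23, adjusted p = 0.00809). None of these groups overlapped, and those of ACKR1 and JAG1 kept their call with each gilt left out. NRP2, a coreceptor for semaphorins and VEGF, was higher in BV by 1.13 ± 0.25 (adjusted p = 0.0382), and UNC5B, a netrin receptor of sprouting endothelium, was higher in S (-1.44 ± 0.34, adjusted p = 0.0447). The venous regulator NR2F2 (-0.19 ± 0.17), NRP1 (0.12 ± 0.28) and SEMA3G (1.24 ± 0.55) were not called, SEMA3G being high in S of gilt C78. The call of GJA5 was lost without gilt C128, C40 or C42, that of BMX without gilt C128 or C40, and those of NRP2 and UNC5B without gilt C40, C42 or C78, with an adjusted p between 0.0554 and 0.158. Without gilt C78, SEMA3G was called at 0.0218, and without the block UNC5B was not, at 0.0518.

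Mural cell genes other than the contractile ones were divided. Of 19 tested, 7 were called higher in BV and none in S, and the median was 0.66. ANGPT1, the ligand that mural cells send to TEK, had 35.2, 46.1, 32.2 and 49.4 CPM in BV and 11.4, 7.83, 6.596 and 11.3 CPM in S (2.13 ± 0.20, adjusted p = 0.0055). HEY2, a transcription factor downstream of Notch, had 76.6, 49.9, 54.0 and 106 CPM and 21.8, 15.9, 13.2 and 28.1 CPM (1.85 ± 0.14, adjusted p = 0.00362). Both had no overlap, and neither lost its call with any gilt left out. The surface proteins MCAM (1.70 ± 0.29) and CSPG4 (1.94 ± 0.48), the receptor NOTCH3 (1.58 ± 0.37) and ANGPT2 (1.26 ± 0.30), the antagonist of ANGPT1, were called as well. The pericyte genes RGS5 and PDGFRB were not. RGS5 had 402, 186, 455 and 256 CPM in BV and 213, 168, 76.4 and 903 CPM in S (0.46 ± 0.66), S of gilt C78 being the highest of the 8 libraries. PDGFRB, the receptor that recruits pericytes and is also made by fibroblasts, had 215, 263, 211 and 167 CPM in BV and 276, 311, 299 and 299 CPM in S (-0.48 ± 0.14, adjusted p = 0.0808), with every S library above every BV library. The transcription factor EBF1 was not called (0.32 ± 0.28). When gilt C40 was left out, the calls of CSPG4, MCAM, NOTCH3 and ANGPT2 were lost, and those of 1 or 2 of CSPG4, NOTCH3 and ANGPT2 without each other gilt, with an adjusted p between 0.0806 and 0.164. Without the block CSPG4, NOTCH3 and ANGPT2 had an adjusted p between 0.108 and 0.197.

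Elastic fibre genes held some of the clearest differences of the matrix, 7 of 19 being called higher in BV and 1 in S, with a median of 0.51. ELN, the elastin of the vessel wall, had 302, 335, 513 and 306 CPM in BV and 45.5, 24.6, 15.97 and 30.4 CPM in S (3.65 ± 0.36, adjusted p = 0.00574). MFAP4, a microfibril protein that binds elastin, had 145, 94.5, 124 and 213 CPM and 31.0, 13.0, 9.37 and 7.32 CPM (3.36 ± 0.42, adjusted p = 0.00906). LTBP1, which stores latent TGF-beta on microfibrils, had 1157, 665, 836 and 938 CPM and 334, 116, 71.5 and 142 CPM (2.64 ± 0.28, adjusted p = 0.00693), and its relative LTBP2 changed by 2.53 ± 0.35. The cross-linking enzymes LOX (2.06 ± 0.36, adjusted p = 0.0178) and LOXL1 (1.68 ± 0.25, adjusted p = 0.0121) were higher in BV too. The groups of ELN, MFAP4, LTBP1, LOX and LOXL1 did not overlap. EMILIN2, an elastin-associated glycoprotein, was higher in S (-1.03 ± 0.15, adjusted p = 0.0115) in all libraries. The microfibril protein FBN1, with 2812, 1780.1, 1721 and 1714 CPM in BV and 1678, 1535, 2097 and 654 CPM in S, was not called (0.51 ± 0.28), nor were the fibulins FBLN1 (-0.06 ± 0.16) and FBLN5 (0.16 ± 0.26). In the absence of gilt C40 the calls of LOX, LOXL1 and EMILIN2 were lost, without gilt C42 those of LOX and EMILIN2 and without gilt C128 that of LOX, with an adjusted p between 0.0504 and 0.0677.

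Among 33 collagens and interstitial matrix genes, 7 were called higher in BV and 2 higher in S, and the median of -0.07 was close to that of all genes. RNA of the abundant fibrillar collagens was found in both compartments. COL1A1 had 21569, 13728, 13895 and 6464 CPM in BV and 17728, 14243, 16618 and 7603 CPM in S (-0.07 ± 0.19), and COL1A2 (-0.05 ± 0.23) and COL3A1 (-0.55 ± 0.25) were not called either, gilt C78 being lowest in both compartments for all 3. The collagens and proteoglycans that differed were minor fibril and vessel components. COL12A1, a collagen on the fibril surface, had 1725, 1499, 1776 and 1629 CPM in BV and 526, 252, 330.2 and 285 CPM in S (2.31 ± 0.19, adjusted p = 0.00408). COL8A1, a network collagen of the vessel wall, had 33.2, 22.5, 215 and 78.9 CPM and 0.367, 0.81, 0 and 5.32 CPM (5.41 ± 0.72, adjusted p = 0.00955). FMOD, fibromodulin, had 904, 539, 603 and 574 CPM and 259, 58.9, 87.8 and 40.3 CPM (2.90 ± 0.33, adjusted p = 0.00731), and the related proteoglycans ASPN (2.19 ± 0.25) and BGN (2.04 ± 0.26) rose with it. None of these 5 genes had overlapping groups. The glycoprotein TNC had 434, 89.6, 164 and 373 CPM in BV and 109.8, 3.51, 3.47 and 3.49 CPM in S (4.51 ± 0.79, adjusted p = 0.0186), where S of gilt C128 was above BV of gilt C40. DPT, dermatopontin (-1.55 ± 0.35, adjusted p = 0.0405), and COL5A3 (-1.25 ± 0.20, adjusted p = 0.0137) were higher in S. The calls of TNC, DPT and COL5A3 were lost without gilt C40 or C42 and without the block, that of BGN without gilt C40 and that of DPT also without gilt C128, with an adjusted p between 0.0503 and 0.14. Without gilt C128 the proteoglycan LUM, at -0.87 ± 0.29 with all gilts, was called, at 0.0138.

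The basement membrane and its integrins had 10 of 30 members called higher in BV and 1 higher in S, with a median of 0.32. Of the laminin chains, LAMB2 and LAMA5 were called higher in BV and LAMC3 higher in S, and the other chains of the list are not described here. LAMB2 had 696, 436, 569.9 and 767 CPM in BV and 342, 262, 303 and 319.9 CPM in S (0.98 ± 0.14, adjusted p = 0.0112) and LAMA5 132, 144, 152 and 207 CPM and 73.4, 49.9, 24.0 and 104 CPM (1.47 ± 0.29, adjusted p = 0.0269). LAMC3, a gamma chain, had 72.4, 66.3, 58.7 and 84.3 CPM in BV and 164, 175, 239.9 and 203 CPM in S (-1.47 ± 0.17, adjusted p = 0.00731), and it kept its call with each gilt left out. In all 3 the groups did not overlap. Of their receptors, ITGA7, the laminin receptor of muscle (1.74 ± 0.27), ITGA1, a collagen receptor (1.42 ± 0.29), and the sarcoglycans SGCD (2.26 ± 0.43) and SGCB (1.14 ± 0.25), which sit with dystrophin in the membrane, were higher in BV. COL4A1, the main collagen of basement membranes (0.31 ± 0.16), HSPG2 (0.07 ± 0.15) and SPARC (-0.04 ± 0.21) were not called. Without gilt C40 the calls of ITGA7, LAMA5, ITGA1, SGCB and LAMB2 were lost, and without another gilt those of SGCD, SGCB or ITGA1, with an adjusted p between 0.054 and 0.139. Without the block that of LAMA5 was lost, at 0.0608.

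**Figure D4:**
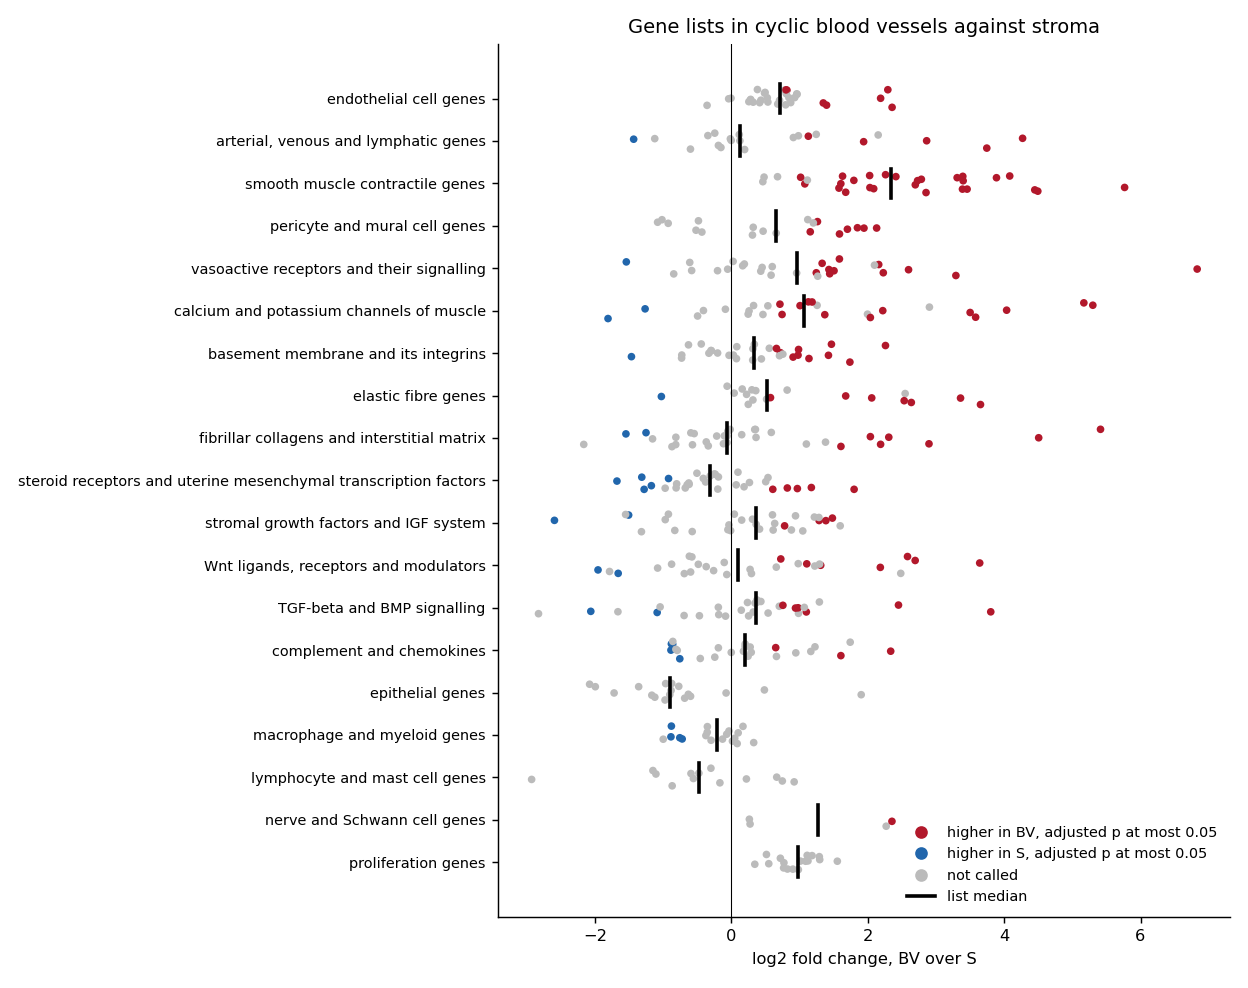
Log2 fold change of BV over S (x axis) for the tested members of 19 gene lists (rows), each point being a gene coloured by its call and the black bar being the median of the list. The smooth muscle list has its median at 2.34 and 26 of 30 members called higher in BV, while the list of steroid receptors and transcription factors lies on both sides of 0.

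The genes with the largest increase in S passed the study's filter in S and not in BV, and were low in BV, most at under 2 CPM. CRHR2, a receptor for urocortins, had 19.1, 28.1, 4.86 and 28.5 CPM in S and 0, 2.02, 0 and 0 CPM in BV (-5.23 ± 0.67, adjusted p = 0.00914). SLC38A4, an amino acid transporter, had 12.1, 29.97, 11.8 and 27.6 CPM in S and 0.326, 1.73, 1.10 and 0 CPM in BV (-4.51 ± 0.51, adjusted p = 0.00731). FAM196B (-4.69 ± 0.48), the netrin receptor UNC5D (-3.91 ± 0.49) and the syntrophin SNTG1 (-3.53 ± 0.51) also had every S library above every BV library and kept their call with each gilt left out, as did CRHR2 and SLC38A4. The channel subunit CACNG5 (-4.74), the lipid transporter MFSD2A (-4.57), the peptide NMU (-3.93) and the transcription factor TFAP2A (-3.90) were the others named from this rank. NMU had 34.3, 7.02, 1.04 and 146 CPM in S, highest in gilts C78 and C128, and its mean was 3150 CPM of the library total in LE against 52.2 CPM in S. The other genes named had means of 0 to 11.4 CPM in LE and GE, each below its mean in S. Among genes chosen after their values were seen, the glutamate transporter SLC1A3 had 71.0, 278, 211 and 124 CPM in S and 15.3, 35.5, 26.2 and 13.3 CPM in BV (-2.86 ± 0.19, adjusted p = 0.00241), and PENK, proenkephalin, 244, 148, 81.6 and 113 CPM and 89.0, 26.5, 22.3 and 21.6 CPM (-2.03 ± 0.20, adjusted p = 0.00574). When gilt C40 was left out, the calls of CACNG5, MFSD2A, NMU and TFAP2A were lost, without gilt C78 those of CACNG5 and MFSD2A, and without gilt C128 those of CACNG5 and TFAP2A, with an adjusted p between 0.0545 and 0.113. Without the block NMU and PENK were not called, at 0.154 and 0.0557.

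Transcription factors and steroid receptors had 5 of 31 members called in each direction, and the median was -0.31. PGR, the progesterone receptor, had 90.9, 75.2, 75.0 and 68.1 CPM in BV and 149, 247, 170.1 and 214 CPM in S (-1.32 ± 0.19, adjusted p = 0.0118). WT1, a zinc finger factor of uterine mesenchyme, had 35.5, 29.98, 25.6 and 19.5 CPM and 73.0, 107, 69.1 and 109 CPM (-1.68 ± 0.24, adjusted p = 0.011). OSR2 (-1.18 ± 0.16), TWIST1 (-1.28 ± 0.29) and HOXA11 (-0.92 ± 0.19), a homeobox gene that patterns the uterus, were higher in S too. Higher in BV were GATA6, a factor of smooth muscle with 38.5, 28.2, 34.4 and 44.01 CPM in BV and 13.4, 8.91, 5.90 and 14.1 CPM in S (1.80 ± 0.21, adjusted p = 0.00731), the mineralocorticoid receptor NR3C2 (1.17 ± 0.20), MEF2C (0.97 ± 0.15), SRF and the glucocorticoid receptor NR3C1 (0.61 ± 0.13). The estrogen receptor ESR1 had 246, 263, 174 and 225 CPM in BV and 333, 268, 206 and 278 CPM in S and was not called (-0.25 ± 0.13, adjusted p = 0.267). Of the steroid receptors that were called, PGR was thus higher in S, and NR3C1 and NR3C2 were higher in BV. Of these calls GATA6 alone was kept with each gilt left out. Without gilt C40 the other 9 were lost, without gilt C42 those of NR3C2, MEF2C, SRF, NR3C1, TWIST1 and HOXA11, without gilt C78 those of SRF, NR3C1, TWIST1 and HOXA11, and without gilt C128 those of NR3C1 and TWIST1, with an adjusted p between 0.0508 and 0.128. Without the block NR3C2 and HOXA11 were not called, at 0.151 and 0.0628.

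Of 29 growth factors, receptors and IGF binding proteins, 4 were called higher in BV and 2 higher in S, with a median of 0.36. FGF10, a stromal ligand of the FGFR2 form of epithelium, had 39.2, 176, 153 and 129.8 CPM in S and 11.4, 25.9, 29.5 and 11.6 CPM in BV (-2.60 ± 0.26, adjusted p = 0.00601). PDGFRA, a receptor of fibroblasts, had 984, 2320.2, 2772 and 1817 CPM in S and 613, 821, 794 and 443 CPM in BV (-1.51 ± 0.24, adjusted p = 0.0146). IGF2 was higher in BV, with 196, 169, 262 and 349 CPM against 64.2, 67.8, 101 and 114 CPM (1.48 ± 0.12, adjusted p = 0.00408), while IGF1 was not called (-0.93 ± 0.37, adjusted p = 0.173). The receptors FGFR1 (1.38 ± 0.18) and IGF1R (0.78 ± 0.18) and the binding protein IGFBP7 (1.29 ± 0.23) were higher in BV. The groups of FGF10, PDGFRA, IGF2, FGFR1 and IGFBP7 did not overlap. The cytokine receptor chain IL6ST (0.15 ± 0.14) and the KIT ligand KITLG (1.05 ± 0.29) were not called. In the absence of gilt C40 the calls of FGFR1, IGFBP7, IGF1R and PDGFRA were lost, without gilt C42 those of IGFBP7, IGF1R and PDGFRA, and without gilt C78 or without the block that of IGF1R, with an adjusted p between 0.0517 and 0.188. IGF1 was called without gilt C128, at 0.0436, and KITLG without gilt C78, at 0.0249.

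In the Wnt pathway, 7 of 28 genes were called higher in BV and 2 higher in S, with a median of 0.10. The ligands were divided. WNT5A, which signals without beta-catenin, had 130.01, 265, 157 and 192 CPM in S and 61.6, 84.4, 67.8 and 26.6 CPM in BV (-1.66 ± 0.29, adjusted p = 0.0182), whereas WNT2B was higher in BV (2.69 ± 0.47, adjusted p = 0.0183) and WNT2 was not called (-1.08 ± 0.28, adjusted p = 0.0556). So were the secreted inhibitors. DKK1 was higher in S (-1.96 ± 0.42, adjusted p = 0.0323), with 91.9, 455, 279.8 and 375 CPM there and 63.2, 70.6, 98.1 and 44.4 CPM in BV, and SFRP1 (2.18 ± 0.27, adjusted p = 0.00842) and SFRP4 (3.64 ± 0.66, adjusted p = 0.0201) were higher in BV. The receptor FZD7 had 37.8, 29.1, 48.8 and 80.6 CPM in BV and 6.05, 8.10, 6.596 and 10.6 CPM in S (2.58 ± 0.22, adjusted p = 0.00418), and FZD4 (1.31 ± 0.21) and FZD6 (1.10 ± 0.27) were higher in BV as well. The means of FZD6 were 176 and 132 CPM of the library total in LE and GE, against 32.35 CPM in BV and 18.1 CPM in S. The coreceptor LRP6 (0.29 ± 0.21) and the transcription factor LEF1 (-0.62 ± 0.18) were not called. FZD7 and SFRP1 kept their call with each gilt left out. Without gilt C40 the calls of SFRP4, WNT2B, FZD4, FZD6, DKK1 and WNT5A were lost, without gilt C42 those of SFRP4, WNT2B, FZD6, DKK1 and WNT5A, and without gilt C128 or C78 that of FZD6, with an adjusted p between 0.0503 and 0.187. Without the block WNT2B and FZD6 were not called, with an adjusted p of at most 0.182, and without gilt C128 WNT2 was, at 0.00986. WNT2 was also called higher in S by DESeq2, at 0.00213, and by the robust GLM, at 2.94e-04.

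In TGF-beta and BMP signalling, 6 of 30 genes were called higher in BV and 2 higher in S, with a median of 0.36. Of all genes tested, 6.02% and 3.74% were called so. The ligand TGFB3 had 69.8, 126, 174 and 127 CPM in BV and 41.99, 26.5, 10.4 and 15.8 CPM in S (2.45 ± 0.50, adjusted p = 0.0274), and ID4, a target of BMP signals, 47.9, 36.0, 42.7 and 159 CPM and 11.7, 1.89, 3.47 and 2.83 CPM (3.80 ± 0.60, adjusted p = 0.0136). The ligand BMP2 (1.10 ± 0.26), the activin subunit INHBA (0.94 ± 0.21), the BMP antagonist CHRD (0.75 ± 0.18) and FSTL1 (0.98 ± 0.16) were higher in BV by smaller amounts. The activin antagonist FST (-1.09 ± 0.19, adjusted p = 0.0188) and the BMP regulator BMPER (-2.06 ± 0.46, adjusted p = 0.0377) were higher in S. The receptors TGFBR2 (-0.47 ± 0.18) and TGFBR3 (-0.70 ± 0.18) were not called, and CHRDL1 (0.98 ± 0.99) varied from 11 to 1038 CPM among the S libraries. All 8 calls were lost without gilt C40 and without gilt C42, with an adjusted p between 0.0513 and 0.181. Those of BMP2, INHBA and CHRD were also lost without gilt C128, those of TGFB3, BMP2 and INHBA without gilt C78, and those of FSTL1, CHRD and FST without the block, with an adjusted p of at most 0.138, while TGFBR2 and TGFBR3 were called without gilt C128, at up to 0.0482.

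Of 18 macrophage and myeloid genes, none was called higher in BV and 4 were called higher in S, against 3.74% of all genes, namely CD163 (-0.72 ± 0.16), a scavenger receptor of macrophages, and the complement chains C1QA (-0.89 ± 0.17), C1QB (-0.76 ± 0.16) and C1QC (-0.88 ± 0.19). C1QA had 24.4, 21.1, 30.6 and 19.0 CPM in S and 15.6, 9.80, 16.3 and 9.97 CPM in BV. LAPTM5 (-0.07 ± 0.18) and CSF1R (-0.38 ± 0.17) were not called, and none of 13 lymphocyte and mast cell genes was, such as JCHAIN (0.75 ± 0.76) and KIT (0.66 ± 0.25). Of 25 complement and chemokine genes, 3 were called higher in BV and 4 higher in S, among them CLU, clusterin, with 218, 71.2, 76.3 and 127 CPM in BV and 18.5, 13.8, 15.3 and 56.9 CPM in S (2.34 ± 0.37, adjusted p = 0.014), the chemokine CXCL2 (1.60 ± 0.34) and the complement inhibitor CD59 (0.65 ± 0.14), and, in S, CFD, complement factor D (-0.86 ± 0.18), besides the same 3 C1Q chains. All of these calls were lost without gilt C40 and without gilt C42, some of them also without gilt C128 or C78, and all but that of CLU without the block, with an adjusted p between 0.0552 and 0.399. The mean of CLU was 576 CPM of the library total in GE, against 118 CPM in BV and 27.9 CPM in S.

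None of the 18 epithelial genes tested was called, their median being -0.90, and KRT8, a keratin, had 60.3, 4.59, 3.82 and 49.1 CPM in S and 8.48, 6.05, 0.827 and 5.40 CPM in BV (-2.08 ± 0.59, adjusted p = 0.0726, 0.0298 without gilt C40). The call of KRT8 depended on the method, DESeq2 giving 0.00623 and the robust GLM 1.33e-08, and the latter also called KRT18, another keratin, at 0.0133. Of 17 proliferation genes none was called, although all 17 had a positive change with a median of 0.98. TOP2A, an enzyme of dividing cells, had 76.0, 135, 155 and 19.9 CPM in BV and 62.7, 23.5, 11.11 and 49.7 CPM in S (1.29 ± 0.81, adjusted p = 0.371), the compartment with more of it differing between gilts. Without gilts C128 and C78 the changes of TOP2A and CENPF were 3.07 and 2.66, against 1.29 and 0.82 with all gilts. That of MCM6 was 1.04, against 0.55. This fit over gilts C40 and C42 was chosen after the data had been seen. It left out gilt C78, in which TOP2A was lower in BV. Its adjusted p, between 3.3e-05 and 0.00153, therefore does not count as support for a difference. Of 4 nerve genes tested, the adhesion molecule L1CAM was called higher in BV, with 19.6, 17.6, 14.9 and 21.2 CPM against 5.32, 2.70, 1.04 and 5.82 CPM (2.35 ± 0.33, adjusted p = 0.011, 0.0645 without gilt C40), and S100B (0.26 ± 0.27) and STMN2 (2.27 ± 0.67) were not.

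Some further members that were not called passed the threshold under other methods. SMTN, LUM, KITLG, TGFBR3, LEF1, PDE1A and IGF1 were called by DESeq2 and by the robust GLM, with an adjusted p between 0.00123 and 0.0419, each in the direction given above. STMN2, a protein of neurons, was called higher in BV by both, at 0.00151 and 6.39e-05. PDGFRB was called higher in S by DESeq2 alone of these, at 0.0377, and SEMA3G and KIT higher in BV by the robust GLM alone, at 0.0122 and 0.0391. Conversely, INHBA and CHRD, called above, were not called by DESeq2, at an adjusted p of 0.0583 and 0.0743.

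The same difference was then set beside that of the 4 pregnant gilts, other animals whose BV and S libraries were fitted with the cyclic ones over 16 libraries. Of the 1190 genes called in cyclic gilts, 1141 had the same sign in pregnant gilts, against 8533 of all 12186 genes tested. The interaction of compartment with pregnancy passed the adjusted threshold for none of the 12186 genes in edgeR's quasi-likelihood test (0%), with 676 genes at an unadjusted p under 0.05, and for 11 genes in DESeq2, among them DMD, PTCH1, NHS, TTLL7 and MYO1D. The smallest p belonged to DMD, whose change in this fit was 3.53 ± 0.19 in cyclic and 1.73 ± 0.18 in pregnant gilts, a difference of -1.81 ± 0.25 with an adjusted p of 0.337. In BV the mean of the cyclic gilts was 428 ± 254 CPM (SD, n = 4) and that of the pregnant gilts 165 ± 161 CPM, while in S they were 37.2 ± 21.9 and 42.6 ± 25.4 CPM. The next in the same direction were PTCH1, the hedgehog receptor (1.20 ± 0.16 and -0.15 ± 0.16), NHS (3.09 ± 0.37 and 0.17 ± 0.35), the tubulin ligase TTLL7 (4.21 ± 0.33 and 1.67 ± 0.33) and the myosin MYO1D (3.34 ± 0.37 and 0.61 ± 0.36). In the opposite direction were SALL1 (-1.74 ± 0.22 and -0.40 ± 0.20), PKHD1L1 (-3.36 ± 0.38 and -1.23 ± 0.30), KDM6B (-0.89 ± 0.16 and 0.07 ± 0.16) and USP22 (-0.80 ± 0.14 and 0.02 ± 0.14), and for SALL1 and PKHD1L1 the level in LE or GE exceeded those in BV and S by at least 4-fold. In edgeR's fit none of these differences passed the adjusted threshold with all gilts. Without pregnant gilt P139 that of DMD did, at -2.02 with an adjusted p of 0.0351.

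**Figure D5:**
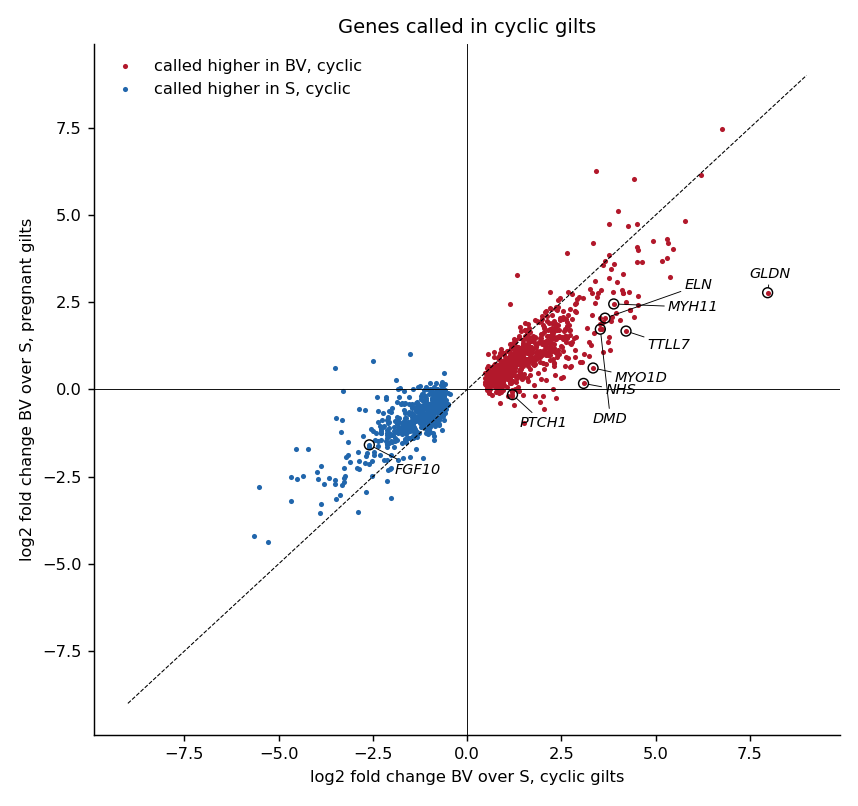
Log2 fold change of BV over S in cyclic gilts (x axis) and in pregnant gilts (y axis) for the 1190 genes called in cyclic gilts, with equal values on the dashed line and some genes named in the text circled. The genes were chosen for their values on the x axis, 1141 of them have the same sign on both axes, and DMD, TTLL7, NHS, MYO1D and PTCH1 lie below the line.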

How the data were processed

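RNA-seq counts of BV and S of 4 cyclic gilts were analysed, with LE and GE of the same gilts for epithelial levels and BV and S of 4 pregnant gilts for the interaction. The deposited values are whole counts per NCBI gene without normalization. To make them, the authors used Trim Galore for trimming, Hisat2 for mapping to Sscrofa11.1, nudup to drop PCR duplicates and QuasR for counting, and they filtered the tables by a CPM cut-off, whose value, like the tool versions and the strand setting, is not given in the sources used here. Whether reads from a gene and an antisense partner were counted apart is therefore not known here. Of 30185 genes, 11096 passed the filter in BV and 11935 in S, and the 12186 genes in either table were tested.

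Counts were normalized by TMM and fitted by edgeR 4.0.16 in R 4.3.3 (quasi-likelihood F test) with compartment and gilt as terms. The study's methods name edgeR's robust GLM, which was run as an alternative, and the standard error is the log2 fold change divided by the square root of F. The gilt number in the labels pairs both compartments of an animal, and deviations from the group means correlated between them at r of 0.32, 0.24, 0.19 and 0.20 over 9382 genes for gilts C128, C40, C42 and C78. The interaction was fitted over 16 libraries with the gilt as a block. At these depths 3 counts over a group equal 0.228 CPM in BV and 0.174 CPM in S. Intervals from counts are exact binomial ones.

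The comparison, the gene lists and the named genes were chosen with earlier results of these data known. The text names the 10 largest changes each way with at least 10 CPM, up to 6 called members of a list each way and up to 3 members not called with the highest levels, the cell type markers, and the 5 genes of smallest interaction p each way, of which an unnamed locus is left out. Some items that these rules would name are not reported here. Other genes are named as chosen after their values were seen. Alternatives were DESeq2 1.42.0, RLE normalization, other filters, no block, thinned counts, a stricter threshold, the removal of ribosomal RNA genes or of genes higher in epithelium, and each gilt left out. The fits were also run on simulated counts with planted changes. No gilt differences and no library apart from the others were built in, so that run does not bear on calls affected by such features.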

Additional observations from a re-analysis of the deposited data

Results flagged for a closer look

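A library stood apart from the other 3 of its compartment, by Dixon's test at the 95% level, in 46 of the 448 groups of 4 libraries examined, the groups being the genes named in the text and the sums of the gene lists in BV and in S. Chance alone would set about 1 in 20 groups apart if values were normal, which CPM are not. A group with 3 values of 0 is always set apart, as were HTR2B and KCNMB1 in S and CRHR2 in BV. The share expected by chance is therefore not known here, and genes of one library are not independent. In the values below, the library named is followed by its nearest neighbour.

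BV of gilt C78 was apart on the high side for 12 genes, several of them contractile or linked to calcium, namely DES (242 against 66.7 CPM), DMD (806 against 347 CPM), ID4 (159 against 47.9 CPM), KIT (249.96 against 85.7 CPM), LMOD1 (208 against 87.7 CPM), MYH11 (8406 against 2414 CPM), MYL9 (938 against 375 CPM), NMU (14.5 against 0.551 CPM), NR3C1 (199 against 160.1 CPM), RYR3 (239 against 64.0 CPM), SFRP4 (159.9 against 55.6 CPM) and TTLL7 (191 against 71.4 CPM). It was apart on the low side for JCHAIN (154 against 412 CPM), a gene of plasma cells. S of gilt C78 was high for CLDN5 (16.6 against 3.51 CPM), CLU (56.9 against 18.5 CPM), COL8A1 (5.32 against 0.81 CPM), HEY1 (22.8 against 4.59 CPM), KCNAB1 (17.3 against 4.03 CPM), KCNMB1 (2.16 against 0 CPM), LDB3 (5.16 against 1.10 CPM), RGS5 (903 against 213 CPM), SEMA3G (105 against 19.1 CPM) and UNC5B (27.1 against 10.8 CPM). It was low for CSF1R (52.1 against 87.8 CPM).

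BV of gilt C128 was high for CHRD (35.5 against 22.4 CPM), CLDN5 (37.2 against 22.3 CPM), FBN1 (2812 against 1780.1 CPM), PENK (89.0 against 26.5 CPM), PTCH1 (566 against 132 CPM) and WNT2B (103 against 32.0 CPM). It was low for the sum of endothelial cell genes (3374 against 5564 CPM). S of gilt C128 was high for ID4 (11.7 against 3.47 CPM), LOXL1 (11.2 against 5.32 CPM), MCM6 (66.4 against 37.8 CPM), PTCH1 (264 against 62.8 CPM), SMO (54.5 against 35.8 CPM), TNC (109.8 against 3.51 CPM) and WNT2B (33.6 against 5.90 CPM). PTCH1 and WNT2B were thus set apart in both compartments of this animal.

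BV of gilt C40 was high for COL4A1 (3693 against 2686 CPM) and CRHR2 (2.02 against 0 CPM). S of this gilt was high for LTBP2 (50.8 against 13.0 CPM). BV of gilt C42 was high for ELN (513 against 335 CPM). In S of gilt C42, HTR2B (0.347 against 0 CPM) was above the others, and low values were found for NR3C1 (88.5 against 116 CPM), the sum of smooth muscle contractile genes (4749.8 against 6369 CPM) and the sum of nerve and Schwann cell genes (28.8 against 53.0 CPM).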

How the results depend on the processing

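The 734 genes higher in BV and 456 higher in S became 595 and 341 when the pairing by gilt was dropped, of which 543 and 290 were shared with the blocked fit, and the interaction stayed at 0 without the block. Dropping the block ended the call of 29 of the 199 genes named by the rule, most of which are given in the text with that value. Of these 199, calls were gained for 13 with DESeq2, 15 with the robust GLM and 11 without a filter. Calls were lost for 2 with DESeq2, 9 with thinned counts and 80 at an adjusted p of at most 0.01. When only genes of both filtered tables were tested, 8 lost their call. They were CLDN5, CSPG4, NOTCH3, ANGPT2, IGF1R, FZD6, BMP2 and CHRD. DESeq2 gave 922 and 616, RLE normalization 715 and 485, thinned counts 721 and 430, filterByExpr 750 and 449, and the removal of genes higher in epithelium 777 and 495. The counts rose to 1145 and 877 with the robust GLM and to 1408 and 915 without gilts C128 and C78, an alternative chosen after seeing the data, under which 23 named genes gained a call and 6 lost one. Without a filter 963 and 746 genes were called, over 21964 genes tested. They fell to 144 and 55 at an adjusted p of at most 0.01. With each gilt left out they ranged from 163 to 617 and from 50 to 402, the lowest without gilt C40. The interaction gave 11 genes with DESeq2, and with each gilt left out 0 to 1, the gene being DMD without pregnant gilt P139. No named gene that was called changed its direction under any of these alternatives. With 3 residual degrees of freedom in the comparison of cyclic gilts, genes with few counts and small changes have little power. The spread between animals and the spread between captures of 1 animal cannot be told apart, since each gilt gave 1 capture per compartment. The size of the captured areas and the vessel types in them were not measured here.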

Other observations

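Hedgehog genes were chosen after their values were seen, and of these PTCH1 and GLI1 were high in both compartments of gilt C128. The receptor PTCH1 and the transcription factor GLI1 are known targets of hedgehog ligands. PTCH1 had 566, 92.8, 104 and 132 CPM in BV and 264, 33.2, 62.8 and 46.4 CPM in S. GLI1 had 31.6, 9.80, 7.16 and 4.57 CPM in BV and 27.1, 2.16, 11.8 and 0.666 CPM in S. Gilt C128 was thus the highest of the 4 in both compartments for both genes. In LE, PTCH1 was lowest in gilt C128, with 59.05, 84.4, 90.2 and 160.1 CPM of the library total. In GE it was highest there, with 91.4, 35.1, 40.6 and 26.6 CPM. PTCH1 (1.20 ± 0.17, adjusted p = 0.0104, edgeR's quasi-likelihood test) was called higher in BV with the gilt as a block and not without it, at an adjusted p of 0.426, and its call was lost without gilt C40, at 0.0645. GLI1 was not called (0.73 ± 0.53, adjusted p = 0.446). The transducer SMO (-0.70 ± 0.16, adjusted p = 0.0395) and the factor GLI2 (-0.69 ± 0.15, adjusted p = 0.034) were called higher in S, and both calls were lost without gilt C40, C42 or C78 and without the block, with an adjusted p between 0.0605 and 0.211, that of SMO also without gilt C128, at 0.0504. IHH, a hedgehog ligand of uterine epithelium, had 69, 7, 25 and 19 counts in GE, 2, 0, 0 and 1 in LE and at most 2 in any BV or S library, gilt C128 being the highest in GE. The ligand DHH had 7, 7, 19 and 1 counts in BV and 3, 2, 0 and 13 in S, where gilt C128 was not the highest, and SHH had 0 in all these libraries. No test was run on these differences between gilts.

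Some vascular genes lay outside the filtered tables and were not tested. The adrenergic receptor ADRA1A had 8, 2, 17 and 83 counts in BV and 0 in all 4 S libraries, where 3 counts over the group would be 0.174 CPM. ADRA1B had 4, 18, 19 and 8 counts in BV and 2, 7, 0 and 11 in S. CCL21, a chemokine of lymphatic vessels, had 7 counts in BV of gilt C128 and 0 in the other 7 libraries.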
